A study of Homo sapiens with 43 samples.

Results

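HARA and LC-1/SQSF are human lung squamous cell carcinoma lines that were profiled for H3K27ac, acetylation of lysine 27 of histone H3, and have no Sox2 ChIP in the labels. They were set against HCC95, KNS62 and HCC2814, lines of the same tumour type that were profiled for both H3K27ac and the transcription factor Sox2, and not for Brn2. The comparison used 8 peak lists, 2 and 3 of H3K27ac and 3 of Sox2, out of 27 samples with a peak list among 43 in the series. All lines were unmodified, with no treatment in the labels, grown in the same medium, and each was represented by 1 library per target. The line was therefore the unit of replication, and nothing in the labels says how far a repeat library of the same line would differ. The 5 lines were chosen by a measured value, the share with H3K27ac of the 3159 p63 sites mapped in LK2_DNp63, a derivative of the line LK2, which was high in each. It was 45.1% in HARA and 46.5% in LC-1/SQSF, against 53.0% in HCC95, 55.4% in KNS62 and 33.1% in HCC2814. The 8 lines left outside had 12.3% to 19.7%, with HCC2814 just inside and LK2 just outside the divide. These values chose the lines and carry no test.

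H3K27ac marks active promoters and enhancers, and the set of acetylated regions is characteristic of a cell's lineage and state. Squamous epithelia are built and renewed by basal cells, whose identity depends on the transcription factor p63. Sox2, a factor of stem and progenitor cells of the airway and oesophagus, is often gained on chromosome 3 in squamous tumours and shares many sites with p63 there. A Sox2 peak inside an acetylated region places the factor at an active element, without showing that it acts on it.

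The H3K27ac lists held 35621 peaks in HARA and 33924 in LC-1/SQSF, against 33197 in HCC95, 41236 in KNS62 and 29473 in HCC2814. Covered length was 60.9 Mb in HARA and 69.4 Mb in LC-1/SQSF, against 57.8 Mb in HCC95, 68.0 Mb in KNS62 and 31.6 Mb in HCC2814. HCC2814 stood apart, with a median peak of 811 bp where the other 4 lines had 1245 to 1570 bp. The Sox2 lists held 14048 peaks in HCC95, 8907 in KNS62 and 7511 in HCC2814. No read counts come with the lists, which leaves the depth of every library unknown, and longer lists overlap more of everything. Coordinates are on hg19, except for promoter sequences. Genes were placed on hg19 from general knowledge, because no annotation of that build was used here.

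The squamous label was checked at the start sites of 6 marker genes, taking for each the 50 kb bin that holds its start. H3K27ac was present in all 5 lines in all 6 bins. The measure is the length of the bin lying under peaks, scaled to an equal total per library. The TP63 bin among the 6 had 10.1 kb in HARA and 3.24 kb in LC-1/SQSF, against 2.44 kb in HCC95, 1.61 kb in KNS62 and 4.03 kb in HCC2814. It did not set all 5 lines apart, since the highest of the 8 other lines had 3.87 kb there. A further bin, not among the 6, was taken at the internal start of TP63, from which the basal p63 isoforms are made. At that start it was 25.8 kb in HARA and 37.3 kb in LC-1/SQSF, against 22.6 kb in HCC95, 17.9 kb in KNS62 and 40.8 kb in HCC2814. The 2 groups overlapped there after scaling, and the highest of the 8 other lines had 1.78 kb. Before scaling HARA, at 27.3 kb, and LC-1/SQSF, at 44.9 kb, were above HCC95 (22.7 kb), KNS62 (21.1 kb) and HCC2814 (22.4 kb). At SOX2 itself the bin had 13.03 kb in HARA and 14.7 kb in LC-1/SQSF, against 10.0 kb in HCC95, 11.3 kb in KNS62 and 15.3 kb in HCC2814. After scaling, HARA and LC-1/SQSF, for which no Sox2 list exists, thus had acetylation at SOX2 inside the range of the 3 lines with one. Before scaling they were above all 3, with 13.8 kb in HARA and 17.7 kb in LC-1/SQSF, against 10.0 kb in HCC95, 13.4 kb in KNS62 and 8.42 kb in HCC2814. The SOX2 bin contained 5 Sox2 peaks of HCC95, 3 of KNS62 and 4 of HCC2814. The start of POU3F2, which encodes Brn2, had 0 kb in HARA and 0.50 kb in LC-1/SQSF and 0 kb in the other 3 lines, against 43.7 kb in the highest of the 8 other lines. Over 5 neuroendocrine marker genes the summed length was 1.46 kb in HARA and 2.10 kb in LC-1/SQSF, against 0 kb in HCC95, 0.883 kb in KNS62 and 1.09 kb in HCC2814, and the bins of NEUROD1 and INSM1 were at 0 in all 5 lines.

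**Figure D1:**
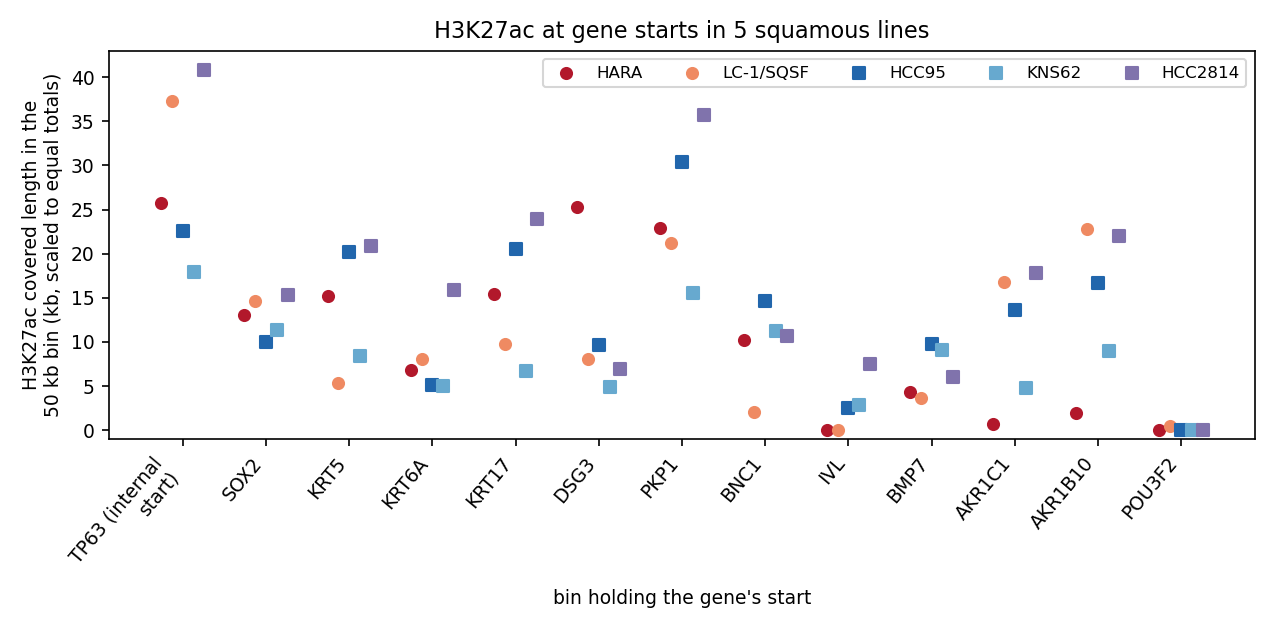
Length of H3K27ac in the 50 kb bin holding each gene's start (vertical axis, kb, scaled to an equal total per library) for 13 starts along the horizontal axis, with 1 point per line and circles for HARA and LC-1/SQSF, squares for HCC95, KNS62 and HCC2814. The circles and squares overlap at most starts, both circles lie at 0 at IVL and below the squares at BMP7, and HARA lies lowest at AKR1C1 and AKR1B10.

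The base pairs shared between lists gave no separation of the 2 groups. The Jaccard index, which divides the length common to both lists by the length in either, was 0.385 between HARA and LC-1/SQSF. Each of the 2 lines was closer to HCC95 than to the other, with 0.426 for HARA and 0.448 for LC-1/SQSF. The mean over the 6 pairs that cross the groups was 0.400, beside 0.407 over the 3 pairs among HCC95, KNS62 and HCC2814. HCC2814, the line with least covered length, had the lowest index with LC-1/SQSF (0.349) and with KNS62 (0.357).

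Whether any part of the genome differed in H3K27ac was tested over 9928 bins of 50 kb with limma. None was called at an adjusted p under 0.05 (0% of the bins), and the smallest adjusted p was 0.930. An unadjusted p under 0.05 was found in 421 bins (4.24%), 108 higher in HARA and LC-1/SQSF (1.09%) and 313 lower (3.15%). The direction of that split follows the scaling, since 276 of 367 such bins were higher without it. Over all bins tested, the log2 difference had a median of -0.08 after scaling and 0.21 before it, and what follows is given after scaling. The values of the 2 groups did not overlap in 16.3% of bins, 519 higher (5.23%) and 1097 lower (11%). Leaving out LC-1/SQSF changed the result to 150 called bins, which are described with HARA further on, whereas leaving out HARA or any of the other 3 lines called 0. The bins named next did not pass the adjusted test and are the largest differences among those with an unadjusted p under 0.05.

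The largest lower bin lay on chromosome 1, from 241750001 to 241800000, at OPN3, the gene of an extraocular opsin. HARA and LC-1/SQSF had 0 kb there, against 5.85 kb in HCC95, 4.55 kb in KNS62 and 15.5 kb in HCC2814. The log2 difference was -3.10 (SE 0.51, limma adjusted p = 0.930), and the bin held 3 Sox2 peaks of HCC95, 3 of KNS62 and 2 of HCC2814. At SYT2, which encodes a synaptotagmin of vesicle release, the bin starting at 202550001 on chromosome 1 again had 0 kb in HARA and LC-1/SQSF, against 4.38 kb in HCC95, 7.03 kb in KNS62 and 4.44 kb in HCC2814. The bin at 650001 on chromosome 9, in KANK1, a regulator of the actin skeleton, had 1.16 kb in HARA and 0 kb in LC-1/SQSF, against 10.0 kb in HCC95, 17.05 kb in KNS62 and 4.06 kb in HCC2814. Next to ROS1, the gene of a receptor tyrosine kinase, the bin at 117750001 on chromosome 6 had 0 kb in both, against 3.69 kb in HCC95, 5.21 kb in KNS62 and 6.18 kb in HCC2814. Log2 differences of the 10 named lower bins ran from -3.10 to -2.50, and 5 of the 10 had no covered length in HARA or LC-1/SQSF. A Sox2 peak of at least 1 of the 3 lists lay in 8 of the 10, beside 59.9% of all tested bins. The 10 were picked as more acetylated in the lines that gave these Sox2 lists, so this count cannot be told apart from that choice.

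In the other direction the largest bin was on chromosome 8, from 91100001 to 91150000, with 15.1 kb in HARA and 3.46 kb in LC-1/SQSF, and 0 kb in HCC95, KNS62 and HCC2814. It held no Sox2 peak, and its log2 difference was 3.08 (SE 0.84, limma adjusted p = 0.998). Both bins at COBLL1, on chromosome 2, were among the 10. The bin from 165650001 had 30.6 kb in HARA and 15.8 kb in LC-1/SQSF, against 3.64 kb in HCC95, 4.53 kb in KNS62 and 0 kb in HCC2814. The neighbouring bin from 165600001 had 10.9 kb in HARA and 2.999 kb in LC-1/SQSF and 0 kb in the 3 lines. At ATXN1, the ataxin 1 gene, the bin at 16700001 on chromosome 6 had 9.60 kb in HARA and 15.7 kb in LC-1/SQSF, against 0 kb in HCC95, 4.06 kb in KNS62 and 0 kb in HCC2814. At SOX5, another SOX-family factor, the bin at 24600001 on chromosome 12 had 3.39 kb in HARA and 9.94 kb in LC-1/SQSF and 0 kb in the 3 lines. PDE4B, a cyclic AMP phosphodiesterase, had 2.82 kb in HARA and 17.8 kb in LC-1/SQSF in the bin at 66700001 on chromosome 1, against 0 kb in HCC95 and KNS62 and 1.12 kb in HCC2814. In most of these bins 1 of the 2 lines carried most of the length, HARA on chromosome 8 and at COBLL1 and LC-1/SQSF at SOX5 and PDE4B. Of the 10 higher bins, 6 had no covered length in HCC95, KNS62 or HCC2814. Those 6 reached the minimum mean length of 2 kb only through HARA and LC-1/SQSF. A Sox2 peak of at least 1 of the 3 lists lay in 4 of the 10, where 59.9% of all tested bins held one. Over all 104 higher bins with an unadjusted limma p under 0.05 and no overlap of the groups, the share was 56.7%, close to that of all bins.

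Merging the 5 lists gave 62985 regions, of which 13523 (21.5%) were held by all 5 lines. HARA and LC-1/SQSF alone held 778 regions (1.24%), and HCC95, KNS62 and HCC2814 alone held 424 (0.673%). A region has to be in fewer lists to fall in the first class than in the second, so the counts cannot be compared with each other. Single lines held far more, with 7551 for HARA and 6407 for LC-1/SQSF, against 4650 for HCC95, 10044 for KNS62 and 1759 for HCC2814. The regions of HARA and LC-1/SQSF alone had a median length of 1230 bp and the peaks in them median score percentiles of 28.7 in HARA and 27.2 in LC-1/SQSF. Those of the 3 lines alone had a median of 1961 bp and percentiles of 39.0 in HCC95, 47.6 in KNS62 and 32.2 in HCC2814. Regions of all 5 lines were 2940 bp long at the median, with percentiles of 63.8 to 76.0, so the regions that set the groups apart were shorter and lower in score. A region is the union of overlapping peaks, so one merged from more lists tends to be longer by construction. The difference in length is therefore no trait of the groups. The score is the authors' own value per peak and was used to rank peaks within a list. Of the 778 regions, 271 (34.8%) were held by none of the 8 other lines, as were 126 of the 424 (29.7%).

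The widest region of HARA and LC-1/SQSF alone ran from 164902219 to 164930459 on chromosome 3, with 28.2 kb covered in HARA and 0.529 kb in LC-1/SQSF. The next, on chromosome 5 from 147376312 to 147398996, had 22.7 kb covered in HARA and 0.797 kb in LC-1/SQSF. In SOX5, a region on chromosome 12 from 24638547 to 24647627 had 1.67 kb in HARA and 9.08 kb in LC-1/SQSF. These 3 regions were broad in 1 line and short in the other, whereas the fourth, on chromosome 8 from 91101463 to 91109144, had 7.15 kb in HARA and 4.17 kb in LC-1/SQSF. Of the 8 lines outside the comparison, 3 held the widest region, 1 the next, 2 that in SOX5 and 2 the fourth. Of the 5 widest regions of HCC95, KNS62 and HCC2814 alone, 2 lay in MAP3K13, a kinase upstream of JNK signalling. The first, on chromosome 3 from 185032238 to 185038166, had 5.93 kb in HCC95, 3.33 kb in KNS62 and 2.38 kb in HCC2814, and held 2 Sox2 peaks of HCC95 and 1 of each other list. The second, from 185052381 to 185057935, had 5.55 kb in HCC95, 4.07 kb in KNS62 and 2.09 kb in HCC2814, with the same numbers of Sox2 peaks. Of the 8 outside lines, 5 held the first MAP3K13 region and 4 the second, so neither was particular to HCC95, KNS62 and HCC2814.

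Sox2 peaks were rare in the regions of HARA and LC-1/SQSF alone. A Sox2 peak of HCC95 lay in 5.53% of the 778 regions (Wilson 95% interval 4.13 to 7.36), one of KNS62 in 2.19% (1.37 to 3.47) and one of HCC2814 in 3.599% (2.50 to 5.15). In the 424 regions of the 3 lines alone the shares were 33.0% (28.7 to 37.6), 24.1% (20.2 to 28.3) and 18.4% (14.998 to 22.4). Regions of all 5 lines, which are longer, had 22.6%, 11.8% and 12.5%. Per Mb of region, to allow for length, the centres of Sox2 peaks of any of the 3 lists numbered 45.4 in regions of HARA and LC-1/SQSF alone, against 189 in those of the 3 lines alone and 96.3 in those of all 5 lines. All 3 lists had a Sox2 peak in 3 of the 778 regions (0.386%) and in 44 of the 424 (10.4%), beside 5.21% of the regions of all 5 lines and 2.61% of all merged regions. Intervals cover counting error, in which regions count as independent, and the shares were not tested.

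**Figure D2:**
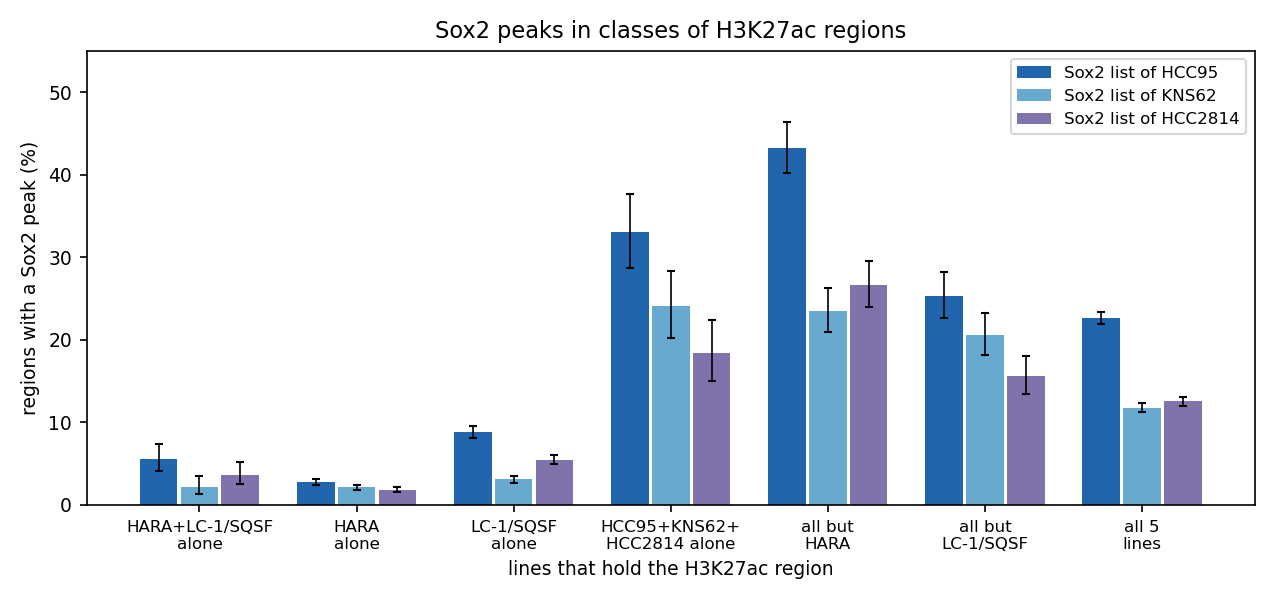
Share of H3K27ac regions that hold a Sox2 peak (vertical axis, %) by the lines that hold the region (horizontal axis), with 1 bar for each Sox2 list and Wilson 95% intervals as error bars. Of the classes plotted, bars are lowest for HARA alone, at 1.87% to 2.77%, and highest for HCC95 Sox2 peaks in regions of all lines but HARA, at 43.3%.

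The Sox2 lists come from the very lines whose acetylation defines the second class, and this tie was visible in other classes. HCC95 Sox2 peaks lay in 22.8% of the regions of HCC95 alone, where KNS62 peaks lay in 2.80% and HCC2814 peaks in 4.15%. An HCC95 Sox2 peak lay in 43.3% of the regions of all lines but HARA and in 25.3% of those of all lines but LC-1/SQSF, against 8.94% of those of all lines but HCC95. With Sox2 lists from outside the 5 lines the contrast was smaller. LK2 Sox2 peaks lay in 1.93% (1.17 to 3.16) of the regions of HARA and LC-1/SQSF alone and in 5.42% (3.64 to 8.01) of those of the 3 lines alone, and NCI-H520 peaks in 4.11% (2.93 to 5.75) and 5.19% (3.45 to 7.73). Without a Sox2 list of HARA or LC-1/SQSF, fewer Sox2 sites in their own regions and Sox2 sites at other places cannot be told apart.

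The 44 regions of HCC95, KNS62 and HCC2814 alone with a Sox2 peak in all 3 lists included several at known genes, which were picked after their values were seen. On chromosome 1, the region from 152858719 to 152859991 lies near IVL, the gene of involucrin, a protein of the cornified envelope of differentiating squamous cells, and none of the 8 other lines held it. A region on chromosome 7 from 89783253 to 89787517 overlaps the start of STEAP1, which encodes a membrane protein of the STEAP family, and was held by 6 of the 8 other lines. On chromosome 9, the region from 110266309 to 110267642 lies near KLF4, a factor of epithelial differentiation, and was held by 7 of the other lines. Further regions lay in OPN3, in NRP1, which encodes a semaphorin and VEGF co-receptor, and in THADA. No region sequence could be read, but the promoters of IVL and STEAP1 are shown from RefSeq, with GRCh38.p14 coordinates, beside that of SOX2, whose bin had H3K27ac in all 5 lines. Each is a stretch of 300 bases that includes the start. Capitals mark matches on either strand to ACAAAG or ACAATG, the core bound by SOX factors, and to TGANTCA, the AP-1 motif.

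IVL, chr1:152908296-152908595, plus strand: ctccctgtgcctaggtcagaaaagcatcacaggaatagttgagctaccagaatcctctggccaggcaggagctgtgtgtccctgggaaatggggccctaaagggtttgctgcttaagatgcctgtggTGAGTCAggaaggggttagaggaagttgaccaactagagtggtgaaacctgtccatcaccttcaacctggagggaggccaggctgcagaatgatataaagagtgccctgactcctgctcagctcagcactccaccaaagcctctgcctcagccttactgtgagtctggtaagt
STEAP1, chr7:90154219-90154518, plus strand: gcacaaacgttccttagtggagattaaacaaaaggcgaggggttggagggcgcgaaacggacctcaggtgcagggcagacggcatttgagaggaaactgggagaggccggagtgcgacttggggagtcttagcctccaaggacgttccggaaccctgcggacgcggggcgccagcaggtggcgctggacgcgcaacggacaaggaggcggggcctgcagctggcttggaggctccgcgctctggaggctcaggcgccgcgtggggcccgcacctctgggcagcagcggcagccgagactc
SOX2, chr3:181711675-181711974, plus strand: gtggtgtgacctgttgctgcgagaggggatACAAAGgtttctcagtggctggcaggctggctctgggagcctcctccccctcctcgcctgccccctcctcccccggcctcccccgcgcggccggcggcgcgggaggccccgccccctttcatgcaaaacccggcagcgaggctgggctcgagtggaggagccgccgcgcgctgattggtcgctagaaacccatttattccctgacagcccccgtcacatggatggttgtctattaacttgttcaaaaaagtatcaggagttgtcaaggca

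The IVL promoter held 1 AP-1 match and no SOX match, the STEAP1 promoter held neither, and the SOX2 promoter held 1 SOX match. Of 35116 RefSeq promoters, 24.5% held a SOX match and 7.71% an AP-1 match. The 2 motifs can share bases, and in these 3 promoters no match did.

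The IVL bin had the largest log2 difference among the tested bins of the gene lists. It reached the minimum mean length of 2 kb only through HCC95, KNS62 and HCC2814. Without HCC2814, the highest of these, it fell below the minimum and was not tested. In the IVL bin HARA and LC-1/SQSF had 0 kb, against 2.53 kb in HCC95, 2.83 kb in KNS62 and 7.50 kb in HCC2814. The log2 difference was -2.28 (SE 0.64, unadjusted limma p = 0.00954, adjusted p = 0.998), and the bin held 1, 2 and 2 Sox2 peaks. Other terminal differentiation genes gave little to compare, since 5 of the 13 bins of that list were above the minimum length of 2 kb, 0 passed the adjusted test and 2 were lower without overlap, those of IVL and SBSN (background 11% of bins). The bin of SPRR1A and SPRR3, genes of the cornified envelope, had 0 kb in HARA and LC-1/SQSF, and 0 kb in HCC95 and KNS62 and 5.71 kb in HCC2814. The median of the 5 tested bins was -0.48, beside -0.08 for all bins.

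Basal and squamous identity genes had acetylation in both groups. Their 20 bins were all tested, 0 passed the adjusted test, 2 were higher without overlap (5.23% of all bins) and 2 lower (11% of all bins), and the median log2 difference was 0.13. DSC3, a desmosomal cadherin of basal layers, had 14.9 kb in HARA and 6.03 kb in LC-1/SQSF, against 4.98 kb in HCC95, 3.82 kb in KNS62 and 5.75 kb in HCC2814 (log2 0.87, SE 0.44, limma adjusted p = 0.998). The groups separated by little, since LC-1/SQSF and HCC2814 were close. Its partner DSG3 had 25.3 kb in HARA and 8.10 kb in LC-1/SQSF, against 9.67 kb in HCC95, 4.93 kb in KNS62 and 6.93 kb in HCC2814. BNC1, a zinc finger factor of basal keratinocytes, had 10.3 kb in HARA and 2.05 kb in LC-1/SQSF, against 14.7 kb in HCC95, 11.2 kb in KNS62 and 10.6 kb in HCC2814 (log2 -1.16, SE 0.57, limma adjusted p = 0.998). HARA lay just under the 3 lines and LC-1/SQSF far under. KRT5, the basal keratin, had 15.2 kb in HARA and 5.40 kb in LC-1/SQSF, against 20.2 kb in HCC95, 8.46 kb in KNS62 and 20.8 kb in HCC2814. At KRT5, LC-1/SQSF was lowest, next to KNS62.

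Of 13 bins at genes known as p63 and Sox2 targets, 0 passed the adjusted test, 3 were lower without overlap (background 11% of bins), 0 were higher and the median was -0.35. The 3 were those of BMP7, LAMA3 and JAG2. BMP7, a secreted growth factor of the BMP family, had 4.31 kb in HARA and 3.67 kb in LC-1/SQSF, against 9.81 kb in HCC95, 9.04 kb in KNS62 and 5.99 kb in HCC2814. Its log2 difference was -0.87 (SE 0.35, unadjusted limma p = 0.0426, adjusted p = 0.998). LAMA3, a laminin chain of the basement membrane, had 2.17 kb in HARA and 2.95 kb in LC-1/SQSF, against 4.85 kb in HCC95, 4.73 kb in KNS62 and 3.18 kb in HCC2814. The gap between LC-1/SQSF and HCC2814 was small. FGFR3, a growth factor receptor, split both groups, with 17.4 kb in HARA and 0.653 kb in LC-1/SQSF, against 23.3 kb in HCC95, 11.9 kb in KNS62 and 2.78 kb in HCC2814.

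Targets of NRF2, the factor of the oxidative stress response, did not separate the groups, and at some of them HARA and LC-1/SQSF lay far apart. The 2 lines were not tested against each other. None of 10 bins passed the adjusted test or had groups without overlap, and the median was -0.10. AKR1B10, an aldo-keto reductase, had 1.99 kb in HARA and 22.8 kb in LC-1/SQSF, against 16.7 kb in HCC95, 8.99 kb in KNS62 and 21.97 kb in HCC2814. The bin shared by AKR1C1 and AKR1C2, enzymes of the same family, had 0.737 kb in HARA and 16.8 kb in LC-1/SQSF, against 13.6 kb in HCC95, 4.79 kb in KNS62 and 17.8 kb in HCC2814. HARA was the lowest of the 5 lines in both. GCLM, the regulatory subunit of glutathione synthesis, was likewise low in HARA at 1.36 kb and had 9.03 kb in LC-1/SQSF, against 2.50 kb in HCC95, 1.87 kb in KNS62 and 3.66 kb in HCC2814. NQO1, a quinone reductase, was close in both at 9.92 kb in HARA and 10.5 kb in LC-1/SQSF, against 7.84 kb in HCC95, 8.18 kb in KNS62 and 15.6 kb in HCC2814. At SLC7A11, the cystine transporter, the order was the other way round, with 37.9 kb in HARA and 15.3 kb in LC-1/SQSF, against 25.3 kb in HCC95, 17.4 kb in KNS62 and 20.4 kb in HCC2814. SLC7A11 lies on chromosome 4, on which HARA had a larger share of its covered length than the other lines, and the part of this in its value was not tested.

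The mesenchymal list had 3 of 10 bins above the minimum, with 0 called and 1 lower without overlap, that of COL1A1, and the simple epithelium list 8 of 8, with 0 called and 2 lower without overlap, beside 11% of all bins. ZEB1, a repressor of epithelial genes, had 0.799 kb in HARA and 8.34 kb in LC-1/SQSF, against 0.881 kb in HCC95, 1.40 kb in KNS62 and 1.45 kb in HCC2814, so that LC-1/SQSF stood alone. Without scaling, all list medians shifted up, and those of the NRF2 and simple epithelium lists changed sign, to 0.24 and 0.27.

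The bins with an unadjusted p under 0.05 and no overlap, 104 higher and 307 lower, were then set beside the Sox2 lists. HCC95 Sox2 peaks lay in 45.2% (Wilson 95% interval 36.0 to 54.8) of the higher bins, 68.4% (63.003 to 73.3) of the lower ones and 46.5% of the 9517 others. KNS62 peaks lay in 31.7% (23.6 to 41.2), 52.4% (46.9 to 58.0) and 29.8%, and HCC2814 peaks in 20.2% (13.6 to 28.9), 45.6% (40.1 to 51.2) and 28.8%. Higher bins were thus close to the others and lower bins had more Sox2 peaks. Lower bins are by definition more acetylated in the lines that gave these Sox2 lists, so the excess cannot be told apart from that tie. The set of lower bins also depends on the scaling, without which 91 of 367 bins with an unadjusted p under 0.05 were lower. Sox2 peaks of LK2, a line outside the comparison, lay in 21.2% (14.4 to 29.96) of the higher bins, 24.4% (19.96 to 29.5) of the lower ones and 16.5% of the others, and those of NCI-H520 in 30.8% (22.7 to 40.2), 35.2% (30.1 to 40.7) and 29.2%. For these outside lists the intervals of higher and lower bins overlapped. Peaks of p63 lay in 10.6% (6.01 to 17.95), 18.6% (14.6 to 23.3) and 13.2%.

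The reverse question was how many Sox2 sites are acetylated in each line. The 3 Sox2 lists merged to 22700 sites, of which 16738 were in 1 list and 1718 in all 3. Of all sites, 31.9% were acetylated in HARA and 38.6% in LC-1/SQSF, against 42.6% in HCC95, 45.7% in KNS62 and 28.2% in HCC2814. The means were 35.3% ± 4.71 (SD, n = 2 lines) in HARA and LC-1/SQSF and 38.8% ± 9.34 (SD, n = 3 lines) in the others, a difference of -3.56 percentage points that lay within the spread of the lines (two-sided exact permutation p = 0.6, adjusted 0.72 over 12 tests). Single lines moved this difference widely, to -0.223 points without HARA, -6.89 without LC-1/SQSF, -1.69 without HCC95, -0.106 without KNS62 and -8.87 without HCC2814. The design cannot give a p under 0.1. Each share was then divided by the share of all merged regions that the line held, in which regions held by that line alone also count. The ratio was 0.638 in HARA and 0.784 in LC-1/SQSF, against 0.8995 in HCC95, 0.781 in KNS62 and 0.812 in HCC2814. HARA was lowest and LC-1/SQSF overlapped the 3 lines (difference -0.120, exact permutation p = 0.3, adjusted 0.72). HARA also had the lowest ratio of the 5 lines at Sox2 sites of LK2 (0.274). It was lowest at those of NCI-H520 too (0.389), there close to KNS62 (0.397). At sites found in a single Sox2 list, HARA was lowest for the HCC95 and HCC2814 lists and not for the KNS62 list. For the KNS62 list its ratio was 0.465, against 0.405 in LC-1/SQSF, 0.391 in HCC95 and 0.416 in HCC2814.

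At the 1718 sites of all 3 lists, acetylation was found at 55.1% in HARA and 63.9% in LC-1/SQSF, against 68.1% in HCC95, 77.9% in KNS62 and 54.9% in HCC2814. The ratio to all regions was above 1 in each line, at 1.10 in HARA and 1.30 in LC-1/SQSF, against 1.44 in HCC95, 1.33 in KNS62 and 1.58 in HCC2814. Here HARA and LC-1/SQSF lay under the 3 lines without overlap, by -0.251 on average, which the exact permutation test of 2 against 3 lines gave p = 0.2 (adjusted 0.72). Sox2 sites of HCC95 and of KNS62 were acetylated most often in the line they came from. HCC95 sites were acetylated at 36.7% in HARA and 46.7% in LC-1/SQSF, against 56.1% in HCC95 itself, 46.6% in KNS62 and 32.1% in HCC2814. KNS62 sites were acetylated at 34.2% in HARA and 35.2% in LC-1/SQSF, against 60.6% in KNS62 itself, 36.0% in HCC95 and 27.2% in HCC2814. HCC2814 sites were acetylated at 35.0% in HARA and 45.4% in LC-1/SQSF, against 38.3% in HCC2814 itself, 42.5% in HCC95 and 46.0% in KNS62, so that there the own line was highest in the ratio and not in the share. With each list's own line left out, the mean of HARA and LC-1/SQSF was 2.31 points higher at HCC95 sites, 3.10 points higher at KNS62 sites and 4.06 points lower at HCC2814 sites (exact permutation p = 0.667, 1 and 0.667, where 2 lines against 2 allow no less than 0.333).

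**Figure D3:**
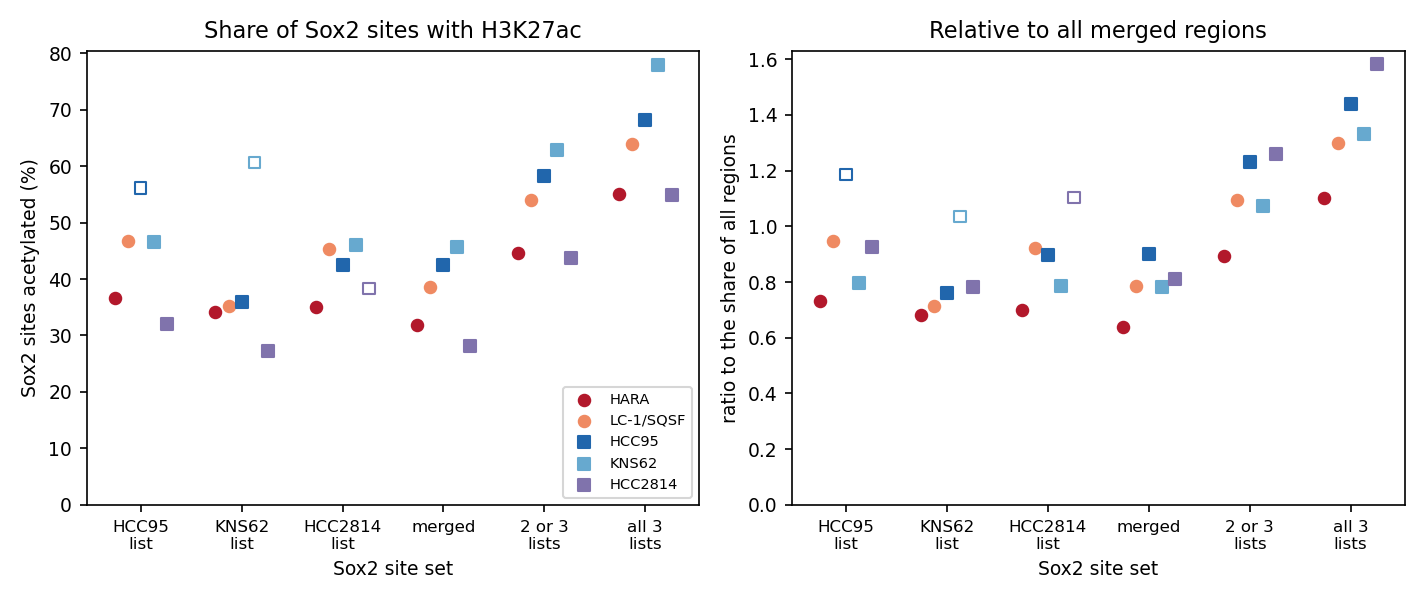
Share of Sox2 sites with H3K27ac (left panel, %) and its ratio to the share of all merged regions (right panel) for 6 sets of Sox2 sites along the horizontal axis, with 1 point per line, circles for HARA and LC-1/SQSF and squares for HCC95, KNS62 and HCC2814. Open squares mark a line at the sites of its own Sox2 list, which are the highest ratios of their sets, and HARA has the lowest ratio in every set.

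HARA and LC-1/SQSF did not acetylate the same Sox2 sites to the same extent. Both lines held 5344 of the 22700 merged sites (23.5%), LC-1/SQSF and not HARA 3420 (15.1%), HARA and not LC-1/SQSF 1907 (8.40%) and neither 12029 (53.0%). At HCC95 sites 2480 were acetylated in LC-1/SQSF and not HARA, and 1075 in HARA and not LC-1/SQSF. At HCC2814 sites these numbers were 1343 and 562, whereas at KNS62 sites they were close, at 1095 and 1012. At the p63 sites, whose acetylation chose the lines, they were 353 and 309. Of the 5344 shared sites 3800 were acetylated in HCC95, KNS62 and HCC2814 as well, and 94 in none of them. Regions of HARA alone held a Sox2 peak of any of the 3 lists in 5.07% of cases (Wilson 95% interval 4.60 to 5.59) and regions of LC-1/SQSF alone in 13.05% (12.2 to 13.9).

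Set against HCC95, KNS62 and HCC2814 without LC-1/SQSF, HARA gave 150 called bins of 9442 (1.59%), 148 higher (1.57%) and 2 lower (0.0212%). An unadjusted p under 0.05 was found in 770 bins (8.16%). The same fit of LC-1/SQSF without HARA called 0 of 9823 bins with limma, and 741 (7.54%) had an unadjusted p under 0.05. With a single HARA library this fit assumes that HARA would vary between libraries as the other lines vary among themselves. Bins at 0 in all 3 lines show no spread there and passed the length filter through HARA alone. Every such bin was called, so these calls were set in advance and give no support for a difference. Of the 148 higher bins, 128 were at 0 in all 3 lines and 134 at 0 in LC-1/SQSF. The bin on chromosome 4 from 134150001 had 45.4 kb in HARA and 0 kb in the other 4 lines and in each of the 8 lines outside (log2 5.46). Bins from 134050001 and 134550001 on the same chromosome had 36.2 and 40.8 kb in HARA. On chromosome 3, the bin from 164550001 had 43.4 kb in HARA, and on chromosome 10 those from 2150001 and 57000001 had 43.03 and 40.2 kb, with 0 kb in the other 4 lines. Chromosome 4 held 39 of the 148, chromosome 2 held 20 and chromosome 10 held 16.

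Chromosome 4 took 5.95% of the covered length in HARA and 2.99% in LC-1/SQSF, against 3.34% in HCC95, 3.58% in KNS62 and 3.05% in HCC2814. HARA had 230 peaks of at least 10 kb and LC-1/SQSF 261, against 110 in HCC95, 71 in KNS62 and 6 in HCC2814, and the widest reached 120 kb in HARA and 41.8 kb in LC-1/SQSF, against 31.4 kb in HCC95, 23.3 kb in KNS62 and 15.7 kb in HCC2814. HARA peaks in the 148 bins had a median length of 1245 bp, beside 1246 bp for its other peaks, and a median score percentile of 38.6, beside 50.4. Neither DNA copy number nor the background of the HARA library is given in these files, and the part of either in the HARA bins was not tested.

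**Figure D4:**
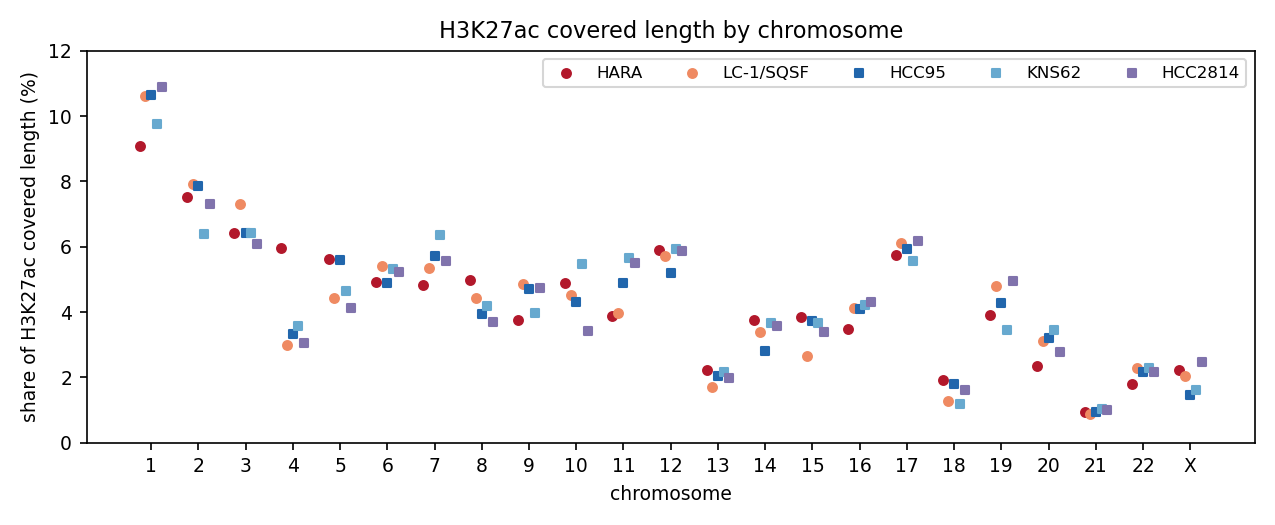
Share of each line's H3K27ac covered length (vertical axis, %) on each chromosome (horizontal axis), with 1 point per line, circles for HARA and LC-1/SQSF and squares for HCC95, KNS62 and HCC2814. On chromosome 4 HARA lies at 5.95%, above the other 4 lines at 2.99% to 3.58%.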

How the data were processed

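The submitters' processing notes name Bowtie2, without a version, and the build hg19 (GRCh37) for the H3K27ac and Sox2 ChIP-seq libraries. Each peak of the deposited lists has a position and the authors' score, whose scale no header explains, so that it served to rank peaks of 1 list. How peaks were called, and at what threshold, is not given in the sources used here. Depth is unknown.

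Analysis was limited to chromosomes 1 to 22 and X. The lines and gene lists were chosen with earlier results of these data known. Covered length in 50 kb bins was rescaled so that all libraries had the same total, and log2(length in bp + 1000) was tested with limma 3.58.1 (R 4.3.3, mean-variance trend, Benjamini-Hochberg) where the mean over the 5 lines reached 2000 bp. The pseudocount makes log2 differences of short covered lengths too small. P-values measure the spread between single libraries of different lines. The fit was run on simulated data with less noise than these lines show and large shifts, which checks the code and not its power here. Regions were merged and counted as overlapping from 1 bp with numpy 2.4.6 and pandas 2.3.3 in Python 3.11.15. Named bins were the 10 largest differences in each direction by called bins or, with none, by an unadjusted p under 0.05 without overlap of the groups. Named regions were the 5 widest of each class. Some genes of the lists are not reported here.

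No hg19 annotation was used, so the planned gene windows were replaced by bins that hold gene starts placed from general knowledge, a choice made after the data were seen. Of 100 genes placed, all 100 were in the RefSeq table (GRCh38.p14), and 67 of 67 neighbouring pairs lay in the same order there. A further 21 genes were placed by their bodies, and all 21 lengths were within 15% of RefSeq. Alternatives were other pseudocounts, filters, bin sizes, scaling, overlap rules, equal numbers of top-scoring peaks, a fit on 13 lines and leaving out each line.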

Additional observations from a re-analysis of the deposited data

How the results depend on the processing

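The number of called bins stayed at 0 with a pseudocount of 200 or 5000 bp, without the filter, without scaling, with equal numbers of top-scoring peaks, in bins of 20 kb and in the fit on all 13 lines, and ran from 0 to 150 with a line left out. The 150 came without LC-1/SQSF, a fit in which HARA is a single library. An unadjusted p under 0.05 was found in 283 to 527 bins, except in 889 without the filter, 842 with bins of 20 kb, 741 without HARA and 770 without LC-1/SQSF, where more or other bins or fewer lines were tested. The 252 recomputed differences of named bins kept their direction. Named higher bins that passed the adjusted test without LC-1/SQSF had 0 kb in HCC95, KNS62 and HCC2814, so their calls were set in advance. Regions of HARA and LC-1/SQSF alone numbered 929 to 8676 with a line left out, and those of HCC95, KNS62 and HCC2814 alone 795 to 1794. Leaving out a line raises these counts by construction. The second count was 238 where at least 50% of the region had to be covered. With equal numbers of top-scoring Sox2 peaks the shares with any Sox2 peak, 8.87% and 43.6%, were 5.66% and 36.1%, since fewer Sox2 peaks enter. The difference in acetylation of merged Sox2 sites, -3.56 points, ran from -8.87 to -0.106 with a line left out and was -0.342 where 50% of the shorter interval had to overlap. That of the ratio, -0.120, ran from -0.193 to -0.0467 with a line left out and was -0.0368 with that overlap. None reached an exact permutation p under 0.2. The gene-window test was not run, for want of an hg19 annotation. No paired analysis was possible because each of the 5 lines has 1 library and no replicate number. Unknown depth limits every comparison of list lengths, and 2 against 3 lines cannot give an exact p under 0.1.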
